A study of Mus musculus with 22 samples.

Results

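Presentation of peptides on major histocompatibility complex (MHC) class II molecules was followed through 10 genes, H2-Aa, H2-Ab1, H2-Eb1, H2-DMa, H2-DMb1, H2-DMb2, H2-Oa, H2-Ob, Cd74 and Ciita, which were chosen by name and are 10 of the 46882 genes listed in the table. All 10 passed the filter on low values (a mean of 5 normalized counts or more in the libraries compared) in each comparison below. RNA was measured in 16 libraries. Cultured MC38 cells (2 libraries, day 0) are 1 line from a colon adenocarcinoma of a C57BL/6 mouse, and normal skin (2 libraries) came from wild-type mice at day 23. Tumors grew after 50000 MC38 cells were injected under the skin of the left flank of mice 8 to 12 weeks old. Wild-type hosts were C57BL/6N mice, with tumors taken at day 23 (3 libraries) and day 46 (3 libraries). Hosts labelled RAG1-/-, of strain B6.129S7-Rag1tm1Mom/J, lack mature T and B cells through loss of a recombinase needed for their antigen receptors, and their tumors were taken at day 13 (3 libraries) and day 23 (3 libraries). All 12 tumors share the same injected line, each was divided into pieces of which 1 gave RNA, and tumors with the same replicate number are from different mice. RNA is therefore a mixture of MC38 and host cells, in which fewer cells of a type and less RNA per cell cannot be told apart.

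MHC class II molecules are pairs of an alpha and a beta chain that show peptides from the endosome to CD4+ T cells. Dendritic cells, macrophages and B cells are the main cells that carry them, while many other cells make them only under interferon-gamma. H2-Aa and H2-Ab1 encode the alpha and beta chains of I-A, and H2-Eb1 encodes the beta chain of I-E, whose alpha chain gene is defective in C57BL/6 mice. Cd74 encodes the invariant chain, which fills the groove and guides new class II molecules to the endosome. H2-DMa pairs with H2-DMb1 or H2-DMb2 to form DM, which exchanges the remnant of the invariant chain for peptide, and H2-Oa with H2-Ob forms DO, an inhibitor of DM known mainly from B cells. Ciita encodes the coactivator that switches on this set of genes through factors bound to the X and Y boxes of their promoters.

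In the GENCODE annotation of GRCm38, the build of the counts, 8 of the 10 genes lay together on chromosome 17, within chr17:34092340-34316674. From the start of this stretch the order is H2-Oa (34092340-34095234), H2-DMa (34119541-34139101), H2-DMb2 (34143307-34151555), H2-DMb1 (34153072-34160230), H2-Ob (34238903-34254414), H2-Ab1 (34257689-34269419), H2-Aa (34282744-34287823, on the minus strand) and H2-Eb1 (34305867-34316674). Ciita lies at chr16:10480059-10528418. Exons of H2-Oa share 321 bases (22.8% of 1407) with BC051537, those of H2-DMa share 360 bases (10.4% of 3448) with Brd2 and those of Ciita share 329 bases (3.45% of 9535) with Dexi, each on the opposite strand. The strand setting of the counting was not given, so reads from such stretches cannot be told apart.

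Promoter windows of RefSeq (GRCm38.p6, 300 bases from 250 before to 50 after the start) were given for 7 of the 10 genes, and the stretches that hold the Y box are printed because they are the sequence that these genes have in common. Each is read 5′ to 3′ on the strand of the gene, with capitals for the Y box letters ATTGG and, where present, for the X box letters CNNGNAAC.
H2-Aa, chr17:34287859-34287921, minus strand: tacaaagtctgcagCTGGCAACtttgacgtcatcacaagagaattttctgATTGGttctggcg
H2-Eb1, chr17:34305758-34305820, plus strand: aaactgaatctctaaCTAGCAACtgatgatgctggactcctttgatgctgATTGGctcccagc
H2-Ob, chr17:34238798-34238860, plus strand: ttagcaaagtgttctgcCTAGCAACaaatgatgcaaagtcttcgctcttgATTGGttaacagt
H2-Oa, chr17:34092286-34092348, plus strand: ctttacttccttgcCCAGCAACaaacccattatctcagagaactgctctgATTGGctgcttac
H2-DMb2, chr17:34145109-34145171, plus strand: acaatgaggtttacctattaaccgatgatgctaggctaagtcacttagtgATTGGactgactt

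All 7 genes held ATTGG on their own strand, which began 48 bases before the start in H2-Aa, 59 in H2-Eb1, 57 in H2-Ob, 43 in H2-Oa, 61 in H2-DMb1, 90 in H2-DMb2 and 198 in 1 of the 2 windows of H2-DMa. Over all 32851 windows, 22.1% held it on the strand of the gene and 37.4% on either strand. CNNGNAAC followed by ATTGG with their first bases 20 to 40 bases apart, so that they cannot overlap, was found in 5 of the 7 genes (H2-Aa, H2-Eb1, H2-Ob, H2-Oa and H2-DMb1). Of all windows, 0.435% held this pair on the strand of the gene and 0.837% on either strand. The first bases were 36 apart in H2-Aa, H2-Oa and H2-DMb1, 35 in H2-Eb1 and 33 in H2-Ob. H2-DMb2 held the Y box letters without an exact match to these X box letters. Its stretch has ctattaac, whose first base is 36 before that of ATTGG and which departs from CNNGNAAC only at the G. Windows follow the RefSeq starts. By the GENCODE annotation the stretch of H2-DMb2 and the windows of H2-DMa lie inside the gene. The stretch of H2-DMb1 lies in an exon of its 5′ UTR, and that of H2-Oa runs across the start of its gene, at 34092340. The letters were chosen with the sequences of these genes in view, so no test was made, and a match is a description of letters and not of a bound factor.

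Between 5589151 and 26134241 reads fell on genes per library, and 3 reads, taken as the floor of detection, correspond to 1.33 to 6.38 normalized counts. Processing used no molecular identifiers, so floors and counting intervals cover counting error only. Rag1 itself, read near the 3′ end, stood at 1.07 to 11.4 normalized counts in the tumors labelled RAG1-/- and at 0 in 5 of 6 wild-type tumors, and a tag outside the deleted part checks nothing. Markers of the missing cells did go with the labels: Cd8a, of cytotoxic T cells, was at 0 to 0.442 normalized counts in the tumors labelled RAG1-/- and at 5.86 to 79.7 in wild-type tumors, and the immunoglobulin gene Igkc was at 0 to 1.77 against 50.7 to 287. Genes of colon epithelium were at or near 0 in MC38 cells, with Cdx2, Krt18 and Krt20 at 0 in both. Skin carried the keratinocyte gene Krt5 at 48702 and 45959 normalized counts. Skeletal muscle RNA stood out in tumors labelled RAG1-/- of day 13, where Acta1 was at 4374 in replicate 1 and 4965 in replicate 3. Of the wild-type tumors of day 23, replicate 2 held keratinocyte RNA (Krt5 at 136). These 3 tumors are the ones left out in a fit below. Acta1 was at 10.6 to 665 in the other tumors, with 637 and 665 in wild-type replicates 2 and 3 of day 46. The tumors kept in that fit were thus not free of muscle RNA.

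MC38 cells held almost no RNA of the class II genes. Reads of H2-Aa, H2-Ab1, H2-Eb1, H2-DMb2, H2-Oa, H2-Ob and Ciita were at 0 in both libraries, and Cd74 had 0 and 2 reads. Only the DM genes stood above the floor. H2-DMa was at 11.1 and 11.7 normalized counts, and H2-DMb1 at 102 and 94.8. The 10 genes together took 0.000957% and 0.001% of the reads in MC38 cells, 0.0871% and 0.101% in skin, 0.0308% to 0.079% in tumors labelled RAG1-/- and 0.0422% to 0.276% in wild-type tumors.

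**Figure D1:**
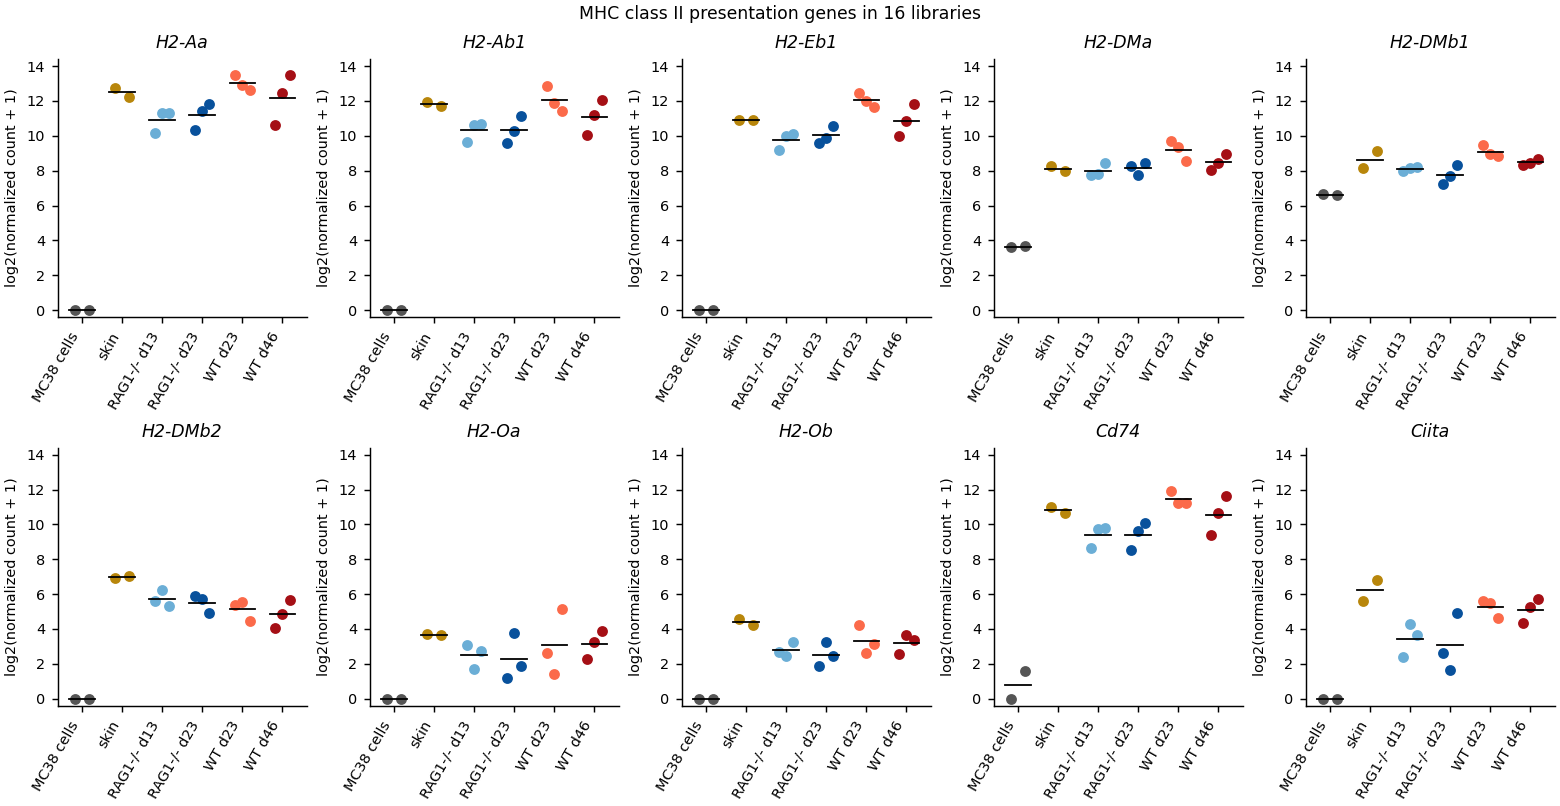
Levels of the 10 genes in 16 libraries, as log2(normalized count + 1) on the vertical axis, by group on the horizontal axis. Each point is a library and each line a group mean of the log2 values. In MC38 cells only H2-DMa, H2-DMb1 and 1 library of Cd74 lie above 0, and all tumors and skin lie above MC38 cells for every gene.

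Against MC38 cells, all 10 genes were higher in wild-type tumors at an adjusted p under 0.05 by limma, where 18.3% of all 14708 genes tested were higher, and 9 of 10 were higher in tumors labelled RAG1-/-, where 15.8% of all genes were. H2-Oa was the exception in the latter (adjusted p = 0.071 by limma). No tumor overlapped MC38 cells for any of the 10 genes, against 21.7% and 21.2% of all genes with such a gap in the higher direction in the wild-type and the other tumors. Genes at 0 in both MC38 libraries passed the filter through the tumors alone, so the direction of their difference was fixed beforehand. For them any read in each tumor is enough for such a gap. H2-Oa, H2-Ob and Ciita were at or under 3 reads in some tumors, so their gaps rest on values at or under the floor. Median log2 fold changes of the 10 genes were 5.20 and 5.02, and those of all genes 0.05 and 0.06. Fitted values against a group at 0 depend on the pseudocount, so folds are given below against 3 reads in each MC38 library where both had 0, and against the reads themselves, with their counting interval, for Cd74, H2-DMa and H2-DMb1.

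For the I-A alpha chain gene H2-Aa, the mean of the wild-type tumors was at least 2685-fold higher than MC38 cells and that of tumors labelled RAG1-/- at least 839.9-fold. H2-Ab1 was at least 1302-fold and 498-fold higher, and H2-Eb1 at least 1171-fold and 361-fold. For Cd74, with 2 reads in MC38 cells in all, the ratio was 2565 (95% Poisson interval 710.2 to 21184) in wild-type tumors and 800.4 (222 to 6609) in the others. The transactivator gene Ciita was at least 13.6-fold and 4.34-fold higher. Without either MC38 library, 9 and 8 genes passed in the wild-type and the other tumors.

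H2-DMb1 was the gene of the set that MC38 cells carried with the most reads. It was 4.63-fold (95% Poisson interval of the MC38 reads 4.05 to 5.31) higher in wild-type tumors and 2.54-fold (2.22 to 2.92) in the others, from 216 reads in MC38 cells, with adjusted p = 1.4e-06 and 0.000494 by limma. Its neighbour H2-DMb2 had 0 reads in MC38 cells and was at least 12.2-fold higher in wild-type tumors and 18.1-fold in the others. The 3′ ends of both genes are largely distinct in sequence: of the 279 words of 22 bases in the last 300 bases of H2-DMb1 transcripts, 22 (7.89%) also occur in H2-DMb2, and 2 of 285 (0.702%) the other way round. H2-DMa, which pairs with either, was 43.5-fold (29.5 to 67.3) and 24-fold (16.3 to 37.1) higher in the same tumors, from 25 reads in MC38 cells.

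Of the 3 classical chain genes, 1 passed the test between host genotypes, and all 3 had higher means in wild-type tumors. H2-Aa stood at 1154, 2542 and 2527 normalized counts in the 3 tumors labelled RAG1-/- of day 13 and at 1284, 2777 and 3573 in those of day 23. In wild-type tumors it stood at 11520, 7664 and 6238 at day 23 and at 1564, 5625 and 11682 at day 46. All 3 wild-type tumors of day 23 lay above all tumors labelled RAG1-/-, while replicate 1 of day 46 lay among the latter. The difference at day 23 was a log2 fold change of 1.81 ± 0.55 (SE, n = 3 and 3), with adjusted p = 0.209 by limma, and over both days 1.54 ± 0.39 (SE, n = 6 and 6), with adjusted p = 0.105.

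H2-Ab1, its beta chain partner, had a similar spread. It stood at 805, 1564 and 1646 normalized counts in tumors labelled RAG1-/- of day 13 and at 761, 1221 and 2215 in those of day 23, against 7404, 3741 and 2714 in wild-type hosts at day 23 and 1058, 2347 and 4222 at day 46. Groups did not overlap at day 23, and over both days they did. Its log2 fold change was 1.73 ± 0.48 (SE) at day 23 (adjusted p = 0.158 by limma) and 1.25 ± 0.34 over both days (adjusted p = 0.133).

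H2-Eb1 was the classical gene whose difference passed the test. It stood at 579, 1023 and 1114 normalized counts in tumors labelled RAG1-/- of day 13 and at 774, 934 and 1541 in those of day 23. Wild-type tumors held 5659, 4093 and 3156 at day 23 and 1005, 1833 and 3574 at day 46. The lowest wild-type tumor of day 23 thus lay above the highest tumor labelled RAG1-/-. H2-Eb1 was higher by 2.01 ± 0.38 (SE) on the log2 scale at day 23, with adjusted p = 0.0426 by limma, and by 1.56 ± 0.27 over both days, with adjusted p = 0.0115.

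Cd74, on chromosome 18 at chr18:60803848-60812652, ran with the classical chains. Tumors labelled RAG1-/- held 401, 864 and 879 normalized counts at day 13 and 374, 798 and 1066 at day 23, and wild-type tumors held 3859, 2412 and 2364 at day 23 and 673, 1601 and 3137 at day 46. No wild-type tumor of day 23 fell into the range of the others, and replicate 1 of day 46 again did. Its log2 fold change was 2.04 ± 0.47 (SE) at day 23 (adjusted p = 0.0965 by limma) and 1.60 ± 0.33 over both days, where it passed the test (adjusted p = 0.037).

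The DM genes split. H2-DMa stood at 212, 225 and 340.1 normalized counts in tumors labelled RAG1-/- of day 13, at 302, 215 and 351 in those of day 23, at 841, 653 and 372 in wild-type hosts at day 23 and at 260.0, 348 and 505 at day 46. It did not overlap at day 23, and its log2 fold changes of 1.05 ± 0.31 (SE) at day 23 and 0.77 ± 0.22 over both days had adjusted p = 0.191 and 0.159 by limma. H2-DMb1 stood at 257, 281 and 289.6 in tumors labelled RAG1-/- of day 13 and at 151, 206 and 317 in those of day 23, and at 698, 497 and 455 in wild-type hosts at day 23 and 324, 349 and 411 at day 46. It was the only one of the 10 genes for which the 6 wild-type tumors lay above all 6 others, as did 0.651% of all genes, with the lowest of the former at 324 and the highest of the latter at 317. H2-DMb1 was higher in wild-type tumors by 1.33 ± 0.24 (SE) on the log2 scale at day 23 (adjusted p = 0.0336 by limma) and by 0.86 ± 0.17 over both days (adjusted p = 0.0294).

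H2-DMb2 went the other way in sign. It stood at 47.1, 74.5 and 39.1 normalized counts in tumors labelled RAG1-/- of day 13 and at 57.6, 51.1 and 28.7 in those of day 23, and at 41.3, 46.0 and 20.6 in wild-type hosts at day 23 and 15.6, 27.5 and 50.2 at day 46. These groups overlap widely. Its log2 fold change was -0.36 ± 0.47 (SE) at day 23 and -0.61 ± 0.33 over both days (adjusted p = 0.827 and 0.525 by limma). The ratio of H2-DMb2 to H2-DMb1 within a library had a median of 0.069 in wild-type tumors (lowest 0.0453, highest 0.122) and 0.215 in tumors labelled RAG1-/- (lowest 0.0905, highest 0.383), with 0.229 and 0.431 in skin, and it was not tested because it was formed after its values were seen. With both genes summed, the difference was 1.12 ± 0.22 (SE) at day 23 (adjusted p = 0.0444 by limma) and 0.68 ± 0.15 over both days (adjusted p = 0.0568).

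**Figure D2:**
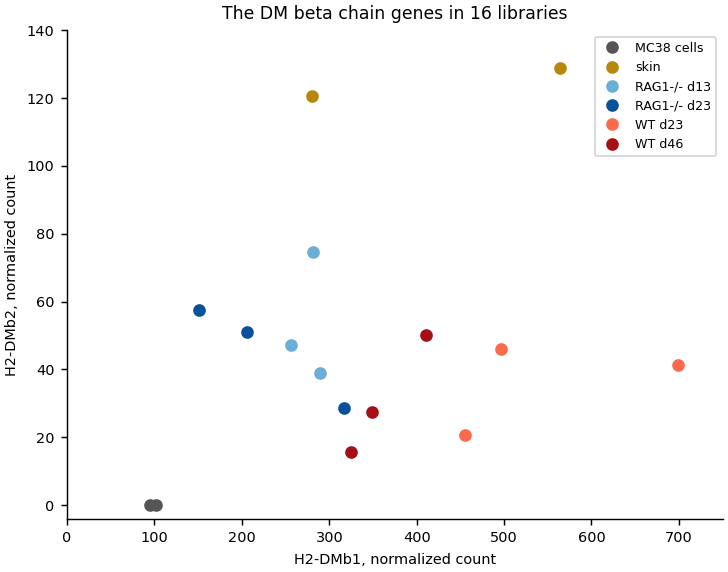
Normalized counts of H2-DMb1 (horizontal axis) and H2-DMb2 (vertical axis), 1 point per library, colored by group. MC38 cells lie at 102 and 94.8 on the horizontal axis and at 0 on the vertical axis, skin lies highest on the vertical axis, and the 6 wild-type tumors lie to the right of the 6 tumors labelled RAG1-/-.

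Genes of the DM inhibitor DO were close to the floor. H2-Oa ranged from 1.31 to 12.8 normalized counts in tumors labelled RAG1-/- and from 1.70 to 34.9 in wild-type tumors, and H2-Ob from 2.62 to 8.57 and from 4.89 to 17.7. Both ranges overlap. Log2 fold changes at day 23 were 0.79 ± 0.94 (SE) for H2-Oa and 0.82 ± 0.65 for H2-Ob (adjusted p = 0.805 and 0.673 by limma).

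Ciita, which controls the set, was low as well. It stood at 4.28, 18.9 and 11.4 normalized counts in tumors labelled RAG1-/- of day 13 and at 5.24, 2.13 and 29.6 in those of day 23. In wild-type tumors it stood at 47.9, 44.3 and 23.8 at day 23 and at 19.5, 36.9 and 52.1 at day 46. Replicate 3 of the tumors labelled RAG1-/- of day 23 reached the range of wild-type tumors. Log2 fold changes of 2.17 ± 0.74 (SE) at day 23 and 1.92 ± 0.52 over both days, the largest of the 10 genes on this scale, had adjusted p = 0.274 and 0.139 by limma.

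Counted together, 2 of the 10 genes were higher in wild-type tumors at day 23 (H2-Eb1 and H2-DMb1), against 0.231% of all 14746 genes tested, and 3 over both days (H2-Eb1, H2-DMb1 and Cd74), against 0.57%. None was lower, where 0.0475% and 0.142% of all genes were. At an unadjusted p under 0.05, 7 of the 10 genes stood on the wild-type side in each comparison, where 1646 and 1682 of all 14746 genes reached such a p in either direction. Median log2 fold changes of the 10 genes were 1.53 at day 23 and 1.06 over both days, beside 0.01 for all genes in either. At day 23, 6 genes did not overlap between the genotypes (H2-Aa, H2-Ab1, H2-Eb1, H2-DMa, H2-DMb1 and Cd74), as did 8.5% of all genes in this direction. In two-sided exact permutation tests of 6 against 6 tumors, p was 0.00216 for H2-DMb1, the smallest such a test can give, 0.00866 for H2-Eb1 and Ciita, 0.0108 for Cd74, 0.0195 for H2-Aa, 0.0238 for H2-Ab1 and 0.026 for H2-DMa. After adjustment over the 90 exact permutation tests made, all 7 had p = 0.0974. This value is set by exact permutation tests of 6 tumors against 2 MC38 or skin libraries, many of which share their smallest possible p of 0.0357. The tests of 3 against 3 cannot go below 0.1.

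**Figure D3:**
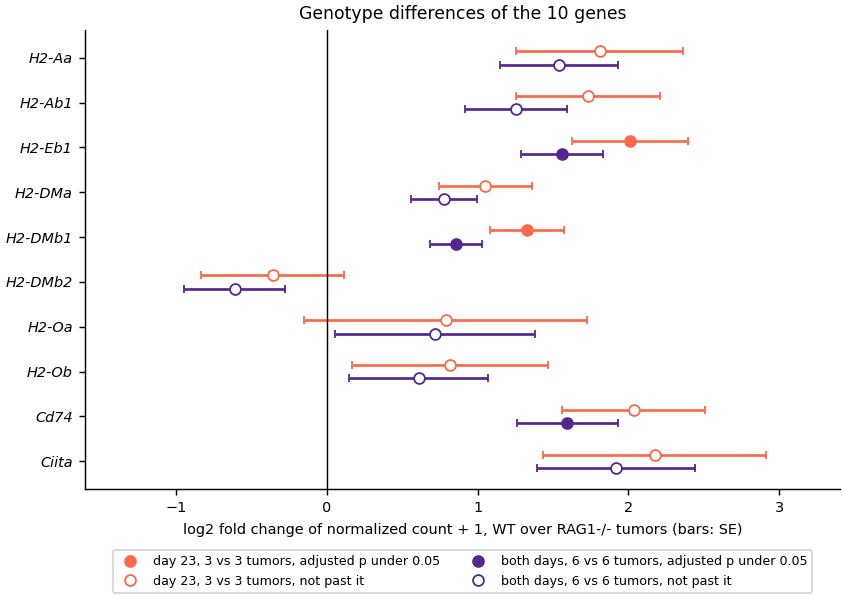
Log2 fold change of normalized count + 1, wild-type hosts over those labelled RAG1-/- (horizontal axis) for each of the 10 genes (vertical axis), with bars of 1 SE from limma. Filled points passed an adjusted p under 0.05. H2-Eb1 and H2-DMb1 are filled for day 23 and also for both days, Cd74 only for both days, and H2-DMb2 alone lies left of 0.

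These calls lie close to the threshold. At day 23, leaving out any 1 of the 6 libraries but replicate 3 of the tumors labelled RAG1-/- (the deepest library, at 26134241 reads) ended both calls. Over all genes those fits called 5 to 29, where the main fit called 41 (34 higher). On the recovered reads at day 23, edgeR called 0 of the 10 genes and 22 of all 14746 genes (17 higher). DESeq2 called 4 of the 10 and 239 of all genes (158 higher). Over both days H2-Eb1 passed in all 12 fits that left out 1 tumor (adjusted p = 0.00185 to 0.0481 by limma), while H2-DMb1 and Cd74 passed in 3 of 12 each. Without replicate 1 of the wild-type tumors of day 46, 5 genes passed, H2-Aa and H2-Ab1 among them, and without the 3 tumors with muscle or keratinocyte RNA, left out after these were seen, 0 passed at day 23 and over both days. The days also differ between genotypes in the pooled comparison.

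Markers of other cells moved with the genotype to different degrees. All 12 macrophage genes were tested and 0 passed between genotypes at day 23 or over both days. Their summed level ranged from 16713 to 28776 normalized counts in tumors labelled RAG1-/- and from 23059 to 34108 in wild-type tumors. Per 1000 normalized counts of this list, H2-Aa ranged from 68.6 to 132 in the former and from 63.1 to 493 in the latter. The 63.1 was replicate 1 of day 46, and the other wild-type tumors were at 179 to 493. At day 23 this ratio was at 68.6 to 132 in tumors labelled RAG1-/- and at 271 to 338 in wild-type tumors. The ratio was not tested. None of the 3 leukocyte genes passed either, with sums of 2062 to 3789 and 2719 to 4351. Of the T cell list, 2 of 7 genes tested were higher in wild-type tumors at day 23 (Cd8a and Lck) and 6 of 7 over both days, with sums of 4.26 to 40.01 against 88.0 to 274. B cell genes gave 1 of 4 at day 23 (Igkc) and 2 of 4 over both days (Igkc and Jchain), with sums of 42.6 to 153 against 125 to 501, while Cd79a was at or near 0 in all tumors. Of the dendritic cell list 0 of 7 tested passed, with sums of 1513 to 2318 against 1791 to 2582, most of which was Fscn1, a gene MC38 cells also carry. Some defining dendritic cell genes were too low to be tested. Xcr1 was at 0 in all 6 tumors labelled RAG1-/- and at 3.17 to 19.9 (2 to 27 reads) in wild-type tumors. Clec9a was at 0 to 0.442 (at most 1 read) against 0 to 22.9 (at most 31 reads). Flt3 was at 0 to 5.72 against 0 to 3.91 and Siglech at 0 to 8.51 against 0 to 1.95. Flt3 and Siglech had at most 6 reads in any tumor, so no direction is read from them. The part of these cells in the class II levels was not tested.

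On the route from interferon-gamma to Ciita, Irf1, a transcription factor gene whose product acts on the Ciita promoter, was higher in wild-type tumors at day 23. It stood at 746, 1015 and 1087 normalized counts in tumors labelled RAG1-/- and at 2516, 1834 and 1651 in wild-type tumors, with no overlap, a log2 fold change of 1.07 ± 0.21 (SE, adjusted p = 0.0438 by limma). Over both days it did not pass (0.63 ± 0.15, adjusted p = 0.0663). Ifng, the ligand, was at 0 in 4 of 6 tumors labelled RAG1-/-, at 5.24 and 1.33 normalized counts in the others and at 1.26 to 22.9 in wild-type tumors, so that the groups overlap (log2 fold change 2.08 ± 0.98 at day 23, adjusted p = 0.447 by limma). Some of these values, in either kind of tumor, were at or under the floor of 3 reads.

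In 3 further lists of the pathway no gene passed the test between genotypes, in either comparison. These were 11 tested genes of class II transcription (Rfx5, the NF-Y subunits, Spi1, Irf8 and others), 12 of antigen processing and cleavage of the invariant chain (Ctss, Lgmn, Ifi30 and others) and 6 of traffic, turnover and partners (March1, March8, Cd83, Cd86, Cd40 and Cd4). Ctss, which makes the last cuts in the invariant chain, ranged from 5775 to 9485 normalized counts in tumors labelled RAG1-/- and from 7288 to 16182 in wild-type tumors. The remnant of the I-E alpha chain gene, H2-Ea-ps, was at 0 in 15 of 16 libraries and reached 0.628 in the other.

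Against MC38 cells the pathway lists rose in part. Of class II transcription, 5 of 11 genes tested were higher in wild-type tumors (Rfx5, Nfyb, Spi1, Irf8 and Prdm1) and 4 of 11 in tumors labelled RAG1-/- (the same without Rfx5). Irf8, a factor of myeloid cells, was at 0.978 to 5.13 normalized counts in MC38 cells, at 248 to 481 in tumors labelled RAG1-/- and at 389.8 to 709 in wild-type tumors. Rfx5, which binds the X box, was measured in MC38 cells themselves, at 94.1 to 105. Of the interferon-gamma route, both receptor chain genes, Ifngr1 and Ifngr2, and Irf1 were higher in either kind of tumor. Processing genes gave 9 higher and 1 lower (Ctsl) of 12 in wild-type tumors and 7 higher in the others. Ctss had 2.57 and 1.96 normalized counts in MC38 cells, against 5775 or more in every tumor, while Ctsb was at 4008 to 4046 in MC38 cells. Traffic genes gave 4 higher (March1, Cd83, Cd86 and Cd40) and 1 lower (March8) of 6 in either kind of tumor.

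With time the 10 genes gave 0 calls, as did all 14746 genes tested by limma (0%), of which 1261 in wild-type hosts and 1722 in hosts labelled RAG1-/- had an unadjusted p under 0.05. In wild-type tumors from day 23 to day 46, 9 of 10 log2 fold changes were below 0 and 3 genes had an unadjusted p under 0.05, H2-Eb1 (-1.16 ± 0.38, SE), H2-DMa (-0.72 ± 0.31) and H2-DMb1 (-0.59 ± 0.24), with adjusted p = 0.444, 0.548 and 0.546. H2-DMb1 was also the one gene without overlap, as were 5.44% of all genes in this direction. In tumors labelled RAG1-/- from day 13 to day 23 no gene of the 10 had an unadjusted p under 0.05, and log2 fold changes ran from -0.38 ± 0.74 (SE) for Ciita to 0.26 ± 0.55 for H2-Aa. edgeR and DESeq2 also called 0 of the 10 in both, while over all genes edgeR called 0 and DESeq2 43 and 206. The change with time differed between hosts for 0 of the 10 genes and 0 of all genes by limma (1279 at an unadjusted p under 0.05), with 1 of the 10 at such a p (H2-Eb1, a difference of -1.41 ± 0.54, adjusted p = 0.524).

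Tumors of 1 group spread widely, as H2-Aa at day 46 in wild-type hosts shows. Replicate 1 of the wild-type tumors of day 46 was the lowest of the 6 wild-type tumors for 9 of the 10 genes, all but H2-Oa, and replicate 1 of day 23 was the highest for 6. In the low tumor Cd8a was at 5.86 normalized counts, the lowest of the wild-type tumors, and the macrophage list summed to 24791, within their range. Ifng was at 2.93 there (3 reads) and at 1.26 in wild-type replicate 3 of day 46 (2 reads). Both are at or under the floor, so the 2 tumors cannot be ranked by Ifng. The part of T cells or macrophages in the class II levels of this tumor was not tested. Among tumors labelled RAG1-/-, replicate 3 of day 23 was the highest for 7 genes. Deviations from the group mean ran together for most members: over the 12 tumors, Pearson's r with H2-Ab1 was 0.94 for H2-Aa, 0.97 for H2-Eb1, 0.96 for Cd74, 0.84 for H2-DMb1, 0.77 for H2-DMa and 0.74 for Ciita, and 0.59 for H2-Ob, 0.39 for H2-DMb2 and 0.00 for H2-Oa. Without the 2 tumors farthest from the median these were 0.94, 0.97, 0.93, 0.91, 0.66, 0.73, 0.53, -0.04 and -0.26. The tumors share library preparation, depth and cell mixture in each library, so this is a description.

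**Figure D4:**
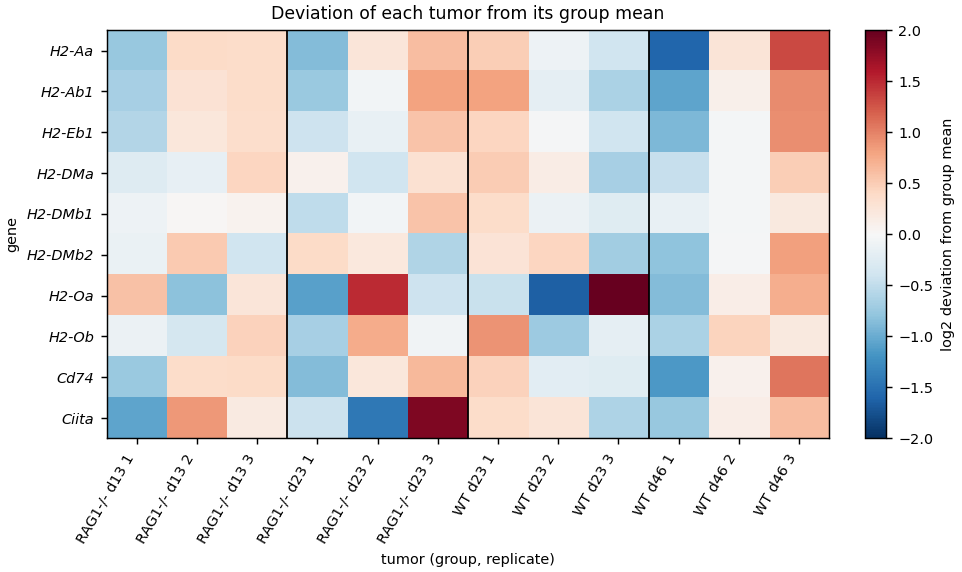
Deviation of log2(normalized count + 1) from the group mean for the 10 genes (vertical axis) in the 12 tumors (horizontal axis), in color from -2 to 2. H2-Aa, H2-Ab1, H2-Eb1 and Cd74 share their pattern, with replicate 1 of the wild-type tumors of day 46 low and replicate 3 high, while H2-Oa and H2-DMb2 differ from it.

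The 5 genes outside the set that deviated most like the mean of the 10 over the 12 tumors were Plscr3, Piezo1, Tmbim6, Hmox2 and Adgrg5, with Pearson's r of 0.96 for each (Spearman's rho 0.99, 0.97, 0.97, 0.90 and 0.97). Without the 2 farthest tumors r was 0.96, 0.94, 0.95, 0.90 and 0.93. The 5 genes were picked from all genes tested for the highest r over these same tumors. High values are thus partly a result of that choice, and all of them are a description only. Of the 5 genes, Adgrg5 was at 0 in MC38 cells and at 12.8 to 86.3 normalized counts in tumors, while Tmbim6 was at 4792 to 4834 in MC38 cells and at 4264 to 6710 in tumors.

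Normal skin carried all 10 genes. H2-Aa stood at 6797 and 4862 normalized counts, H2-Ab1 at 3970.5 and 3343, H2-Eb1 at 1934 and 1921 and Cd74 at 2067 and 1591. H2-DMa was at 301 and 252, H2-DMb1 at 280.0 and 563 and H2-DMb2 at 121 and 129. H2-Oa was at 12.1 and 11.5, H2-Ob at 22.8 and 17.8 and Ciita at 46.9 and 113. For H2-DMb2 both skin libraries lay above every tumor. All 10 genes were lower in MC38 cells than in skin by limma, where 41.2% of all 16780 genes were lower. None overlapped, and 51.4% of all genes had such a gap in this direction. H2-Aa, H2-Ab1, H2-Eb1, H2-DMb2, H2-Oa, H2-Ob and Ciita had no reads in MC38 cells and passed the filter through skin alone. The direction of their difference was thus fixed beforehand, and any read in each skin library is enough for the gap. Only H2-DMa, H2-DMb1 and Cd74 had reads in MC38 cells. H2-Oa was tested in only 2 of the fits that left out a single library.

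Compared with skin, wild-type tumors differed in 1 of the 10 genes. H2-DMb2 was lower by 1.98 ± 0.47 (log2 fold change -1.98, SE, adjusted p = 0.00234 by limma), where 34.2% of all 16259 genes were lower, and it passed in all 12 alternatives and in all 8 fits without 1 library. Tumors labelled RAG1-/- were lower than skin in 8 of the 10 genes, where 35.9% of all genes were lower. The median log2 fold change of the 10 genes was -1.39 in these tumors and -0.08 in wild-type tumors, beside -0.20 and -0.18 for all genes. Ciita differed most, with a log2 fold change of -2.95 ± 0.76 (SE, adjusted p = 0.004), and H2-Ob had -1.75 ± 0.54 (adjusted p = 0.0125). H2-Ab1 was lower by 1.52 on the log2 scale (-1.52 ± 0.50, adjusted p = 0.0165). Cd74, H2-Aa, H2-DMb2, H2-Eb1 and H2-DMb1 followed, with log2 fold changes from -1.43 to -0.71 and adjusted p from 0.021 to 0.046. H2-DMa had -0.04 ± 0.31 (adjusted p = 0.917), a sign that turned with the scaling, and H2-Oa had -1.28 ± 0.88 (adjusted p = 0.223).

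The comparison with skin depends on the scale. With every library rescaled to the same upper quartile, the median of all genes moved from -0.18 to 0.29 for wild-type tumors and from -0.20 to 0.29 for the others, and the calls of all genes from 3708 higher of 9262 to 5811 higher of 9731 and from 3879 higher of 9721 to 6051 higher of 10179. For MC38 cells against skin they moved from 3482 higher of 10402 to 5321 higher of 10863. Only 2 of the 10 genes then stayed lower in tumors labelled RAG1-/-, H2-Ob and Ciita, which also passed in all other alternatives that tested them. Without skin replicate 1 or 2, 2 and 1 genes were lower, and leaving out 1 tumor gave 5 to 8. At the main scale 7 genes lay below both skin libraries in all 6 tumors labelled RAG1-/-, as did 37.7% of all genes, and 2 in wild-type tumors (H2-DMb2 and H2-Ob), as did 35.3%. Langerhans cells, the class II bearing cells of the epidermis, carry Cd207. This gene was at 145 and 177 normalized counts in skin. Tumors labelled RAG1-/- held 2.13 to 11.05 of it and wild-type tumors 0.977 to 15.8. Of the dendritic cell list, 5 of 10 genes tested were lower than in skin in tumors labelled RAG1-/- and 2 were higher. In wild-type tumors 4 were lower and 2 higher. Cd209a, of this list, was at 153 and 235 in skin and at 0 to 4.76 in tumors. The macrophage list summed to 14699.8 to 16455 in skin. The part of any of these cells in the differences from skin was not tested.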

How the data were processed

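The authors read QuantSeq 3′ mRNA libraries on an Ion Proton, trimmed them with Cutadapt and Trimmomatic, dropped those under 22 nucleotides, aligned to mm10 with STAR and Bowtie2, kept primary alignments and counted genes with HTSeq. The deposited signal is the count per gene divided by a DESeq2 size factor by the authors. Annotation, strand setting and tool versions were not given in the sources used here. A primary alignment can fall on the wrong copy of similar genes.

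All deposited values were whole multiples, within 0.01, of 1 read, so reads were recovered, at 5589151 to 26134241 per library. The labels do not say that the MC38 replicates are separate cultures, so p-values there measure the spread of these samples only. No 2 libraries of the same group agreed within sampling noise. A second deposited table was not used here, because its 6 columns match no label.

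log2(normalized count + 1) was tested with limma 3.58.1 in R 4.3.3 (mean-dependent trend, genes with a fitted-library mean of 5 or more, two-sided, Benjamini-Hochberg over all genes tested, threshold 0.05). Tumors were fitted as 12 libraries in 4 groups, with MC38 cells or skin as a further group, and MC38 cells against skin as 4 libraries. Fold changes are on this scale and understate those of low genes. edgeR 4.0.16 and DESeq2 1.42.0 on recovered reads, pseudocounts of 0.1 and 5, other filters, scalings and fits and each library left out were alternatives. The test was checked on simulated data. Leaving an arm with 1 library assumes that it varies like the other groups. Members, gene lists and tests were chosen with earlier results of these data known. All 10 genes are named in each comparison, with the called genes of pathway lists, defining markers and the 5 most similar genes. Some genes of these lists are not reported here.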

Additional observations from a re-analysis of the deposited data

Results flagged for a closer look

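H2-Oa in wild-type tumors had 1 sample far from the others. Replicate 3 of day 23 stood at 34.9 normalized counts, and the gap to the next sample was 0.635 of the range of the 6 tumors, above Dixon's 95% critical value of 0.625. It was the 1 such sample in 20 groups examined (10 genes in 2 genotypes), and chance gives about 1 in 20. Without this library the sign of the H2-Oa difference between genotypes at day 23 turned, from a log2 fold change of 0.79 to -0.26. Exons of H2-Oa overlap BC051537 on the opposite strand in 22.8% of their bases. In the same tumor the B cell gene Ms4a1 was at 12.7 normalized counts, its highest value in the 12 tumors. The part of either in the value was not tested.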

How the results depend on the processing

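Calls against MC38 cells changed little with the processing (8 to 10 genes in wild-type tumors and 8 to 10 in the others), though their fitted fold changes move with the pseudocount, while calls between genotypes and against skin changed. At day 23 the 2 genes higher in wild-type tumors became 1 with a pseudocount of 0.1 or with all 16 libraries in 1 fit, 0 without the filter, with libraries rescaled to the same total, without the trend, with edgeR or without the 3 tumors with muscle or keratinocyte RNA (an alternative chosen after seeing the data), and 4 with DESeq2. Over both days the 3 genes became 2 with a pseudocount of 0.1, 1 without the filter, at the same total or in the fit of 16 libraries, 0 without the trend or the 3 tumors, and 5 with DESeq2. Against skin, the 1 gene of wild-type tumors (H2-DMb2, lower) became 2 with a pseudocount of 5, the same total, edgeR or DESeq2, and 3 at the same upper quartile. The added genes went in both directions: H2-DMa was higher than in skin in 4 alternatives and H2-Eb1 in 1, and H2-Ob was lower in 1. The 8 of tumors labelled RAG1-/-, all lower, became 5 without the filter, without the trend or with edgeR and 7 with a pseudocount of 0.1, a mean of at least 20 or DESeq2. They became 2 at either rescaling. Over all genes, calls ran from 5 to 239 at day 23 and from 25 to 285 over both days. Leaving out 1 library at a time gave 0 to 2 members at day 23, 1 to 5 over both days, 0 to 0 with time in either host, 9 to 10 and 8 to 10 against MC38 cells, 1 to 2 and 1 to 8 against skin, and 8 to 10 for MC38 cells against skin. Of 1708 fits of single members under an alternative, 61 had the opposite sign, 38 of them without 1 library, and 0 of these were calls. Outside those, H2-Oa turned for wild-type tumors with time, to log2 fold changes of -0.080 (pseudocount 5), -0.53 (edgeR) and -0.74 (without the 3 tumors). With time in hosts labelled RAG1-/-, H2-Ab1 turned to 0.00603 (upper quartile), 0.065 (edgeR) and 0.062 (DESeq2), Ciita to 0.29 (edgeR) and 0.25 (DESeq2), Cd74 to -0.10 (total) and -0.34 (without the 3 tumors), and in the latter H2-Aa to -0.12, H2-Oa to 0.60 and H2-Ob to 0.069. Against skin, H2-Ab1 turned to 0.19 (upper quartile), 0.14 (total) and 0.068 (edgeR) and H2-Oa to 0.031 (edgeR) in wild-type tumors, and H2-DMa to 0.45, 0.36, 0.16 and 0.033 (upper quartile, total, edgeR, DESeq2) in the others. Members whose sign turned without 1 library had these log2 fold changes over such fits. Between genotypes at day 23 H2-Oa had -0.26 to 1.61. With time in wild-type hosts the ranges were H2-DMb2 -0.69 to 0.13, H2-Oa -0.74 to 1.13, H2-Ob -0.50 to 0.31 and Ciita -0.45 to 0.24. With time in hosts labelled RAG1-/- they were H2-Aa -0.12 to 0.69, H2-Ab1 -0.40 to 0.37, H2-Eb1 -0.042 to 0.46, H2-DMb2 -0.42 to 0.071, H2-Oa -0.97 to 0.32, H2-Ob -0.64 to 0.053, Cd74 -0.35 to 0.45 and Ciita -1.31 to 0.34. Against skin they were H2-Aa -0.22 to 0.50, H2-Ab1 -0.50 to 0.00083, H2-DMb1 -0.35 to 0.65 and Cd74 -0.088 to 0.47 in wild-type tumors. H2-DMa had -0.17 to 0.085 in tumors labelled RAG1-/-. DESeq2 gave no adjusted p for H2-Oa and H2-Ob in wild-type tumors with time. The cause of these changes was not tested. H2-Oa, H2-Ob and Ciita lay at or under 3 reads in some tumors, so depth limits their values.

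Same replicate numbers are on different mice, so the number was not used as a pair. Deviations of the 18 same-numbered pairs of tumors correlated at -0.24 to 0.25, with 4 over 0.1, and 6 of 12 tumors were closest to their own number. With the replicate number as a block, 2 members passed at day 23, 3 over both days, 0 with time in either host, 10 and 9 against MC38 cells, 1 and 8 against skin and 10 for MC38 cells against skin, as without it. H2-Aa (-0.13) and Cd74 (-0.053) changed sign against skin in wild-type tumors under the block.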

Other observations

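Ratios of members within a library held values that the comparisons above did not use. H2-Aa to H2-Ab1 ran from 1.43 to 2.77 in the 12 tumors and was 1.71 and 1.45 in skin, and Cd74 to H2-Ab1 ran from 0.481 to 0.871 and was 0.521 and 0.476 in skin. H2-Eb1 to H2-Ab1 ran from 0.654 to 1.16 in tumors and was 0.487 and 0.575 in skin, and H2-DMa to H2-Ab1 ran from 0.114 to 0.398 in tumors and was 0.0759 and 0.0755 in skin, so that no tumor overlapped skin in the last 2 ratios. Per 1000 normalized counts of the macrophage list, Ciita ran from 0.101 to 1.03 in tumors labelled RAG1-/- and from 0.788 to 2.20 in wild-type tumors, with 2.85 and 7.72 in skin. These ratios describe libraries read at 3′ ends and not the relative abundance of the transcripts or proteins, they were formed after values were seen, and none was tested.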
